A study of Mus musculus with 9 samples.

Results

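The PARP family encodes ADP-ribosyltransferases, enzymes that split nicotinamide adenine dinucleotide (NAD) and attach its ADP-ribose to proteins or nucleic acids, singly or as chains. Parp1, Parp2 and Parp3 are switched on by broken DNA, where ADP-ribose marks the lesion and recruits repair factors, and strong activation of PARP1 is a known drain on cellular NAD. Parp9, Parp10, Parp11, Parp12 and Parp14 are induced by interferon in many cell types and mostly attach single ADP-ribose units. The 10 members described here were named by symbol as genes of 1 family, under no threshold on their values but with earlier results of these data known, and mapped to the Entrez gene IDs of the deposited files, and all 10 were found among 16873 genes. They fall into 3 DNA-damage members (Parp1 to Parp3), 5 interferon-linked members (Parp9 to Parp14) and 2 in neither class (Parp4 and Parp8).

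The series measured RNA from whole mouse heart in 3 groups of 3 libraries. The first group came from Sting-/- mice given doxorubicin (Sting-/- DOX), the second from wild-type mice given doxorubicin (WT DOX) and the third from wild-type mice given saline (WT saline). Doxorubicin is an anthracycline that damages DNA and can injure the heart, and STING relays the signal of cGAS, a sensor of DNA in the cytosol, to interferon genes; the study asks what this pathway does in the doxorubicin-treated heart and to its NAD. Levels were deposited as FPKM, which counts fragments per length of transcript and per depth of library. No saline-treated Sting-/- group was analysed here, so genotype without the drug is part of each comparison with that group and no interaction could be fitted. Whether each library is its own animal is not stated in the labels, and p-values therefore rest on a spread between libraries that may be technical.

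Sting1, the deleted gene, was listed at 0.06, 0 and 0 FPKM in the Sting-/- DOX libraries, against 17.49 to 17.96 FPKM for WT DOX and 5.1 to 5.93 FPKM for WT saline. The Sting-/- DOX libraries stood apart from the wild-type ones. The correlation across genes was 0.848 to 0.852 between Sting-/- DOX and WT DOX libraries, 0.936 to 0.943 between WT DOX and WT saline, and 0.9948 to 0.9968 within a group. The 9 cardiomyocyte markers had the highest sum of any marker list in each group. Their summed level was 10180 to 10700 FPKM in Sting-/- DOX, 44100 to 46840 FPKM in WT DOX and 68250 to 69030 FPKM in WT saline. The 6 endothelial markers summed to 1065 to 1139 FPKM in Sting-/- DOX, against 258 to 266 FPKM in WT DOX and 262 to 272 FPKM in WT saline. The 6 fibroblast markers summed to 4529 to 4789 FPKM in Sting-/- DOX, against 732 to 748 FPKM in WT DOX and 483 to 491 FPKM in WT saline. Macrophage and monocyte markers, 7 in all, summed to 242 to 254 FPKM in Sting-/- DOX, 340 to 380 FPKM in WT DOX and 49.0 to 52.6 FPKM in WT saline, and the 5 neutrophil markers to 78.4 to 90.7, 209 to 277 and 6.03 to 6.23 FPKM in the same order of groups. The 5 markers of T and natural killer cells summed to 7 to 8.57 FPKM in Sting-/- DOX, 11.3 to 20.7 FPKM in WT DOX and 3.33 to 4.31 FPKM in WT saline, the 3 B cell markers to 3.07 to 4.61, 2.27 to 3.01 and 0.8 to 1.76 FPKM, and the 5 markers of dividing cells to 77.1 to 83.9, 89.1 to 94.7 and 40.4 to 44.02 FPKM. The macrophage and dividing-cell differences between the DOX groups rest on 1 marker each, singled out after the values were seen. Without the monocyte gene Ly6c2 the other 6 macrophage and monocyte markers summed to 240 to 250.3 FPKM in Sting-/- DOX, 229 to 230 FPKM in WT DOX and 44.5 to 49.5 FPKM in WT saline, and 3 of the 7 (Adgre1, Cd68 and Csf1r) were called higher and 3 (Ly6c2, Fcgr1 and Ccr2) lower in Sting-/- DOX against WT DOX. Without Pcna the other 4 dividing-cell markers summed to 25.8 to 26.99 FPKM in Sting-/- DOX, 19.4 to 21.4 FPKM in WT DOX and 3.99 to 4.68 FPKM in WT saline, and 3 of the 5 (Mki67, Ccnb1 and Cdk1) were called higher and 1, Pcna, lower in Sting-/- DOX against WT DOX. No marker of any list was at 0 in every library of a group. The part of these shifts in the changes below was not tested, and in bulk tissue fewer cells of a type and less RNA per cell cannot be told apart.

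Differences were tested with limma on log2(FPKM + 1) over the 12485 genes that averaged 1 FPKM or more, and a change was called at an adjusted p under 0.05. All fold changes below are on that scale, which understates changes of low genes. All 10 members passed the filter on their mean over the 9 libraries. So many genes differed between the groups that counts of members need the background beside them. In WT DOX against WT saline, 45.3% of all genes tested were called higher and 21.5% lower, with a median log2 fold change of 0.13. For Sting-/- DOX against WT DOX these shares were 54.1% higher and 29.7% lower, with a median of 0.25. For Sting-/- DOX against WT saline they were 63.0% higher and 25.9% lower, with a median of 0.49. Rescaling the libraries by their median ratios moved these medians to -0.09, -0.05 and -0.02, and quantile normalization moved them to -0.10, 0.02 and 0.03, and small changes of members therefore depend on the scaling. These are called the 2 rescalings below, and a setting means the fit described here or one of its alternatives. Median-ratio scaling called 28.7%, 37.7% and 42.3% of all genes higher and 40.9%, 43.1% and 44.0% lower, in the same order of comparisons. Quantile normalization called 27.7%, 41.9% and 43.9% higher and 43.0%, 39.7% and 41.7% lower. Counts of every gene list below are to be read against these shares too.

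The members covered a wide range of levels. Parp3 was highest in all 3 groups, with a mean of 43.8 FPKM in Sting-/- DOX, 46.8 FPKM in WT DOX and 34.1 FPKM in WT saline, and in each group its libraries lay above those of the next member. Parp9 came second in each group, but its range overlapped that of the member below it, Parp12 in both DOX groups and Parp1 in WT saline. The lowest member was Parp4 in Sting-/- DOX, at 6.12 FPKM, and Parp8 in the other groups, with a mean of 3.80 FPKM in WT DOX and of 3.72 FPKM in WT saline. In WT DOX the ranges of neighbours overlapped from Parp9 through Parp12, Parp14 and Parp1 to Parp10, so their order there was not separated by the libraries. Parp1 stood at place 7 of 10 in Sting-/- DOX, 5 in WT DOX and 3 in WT saline.

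**Figure D1:**
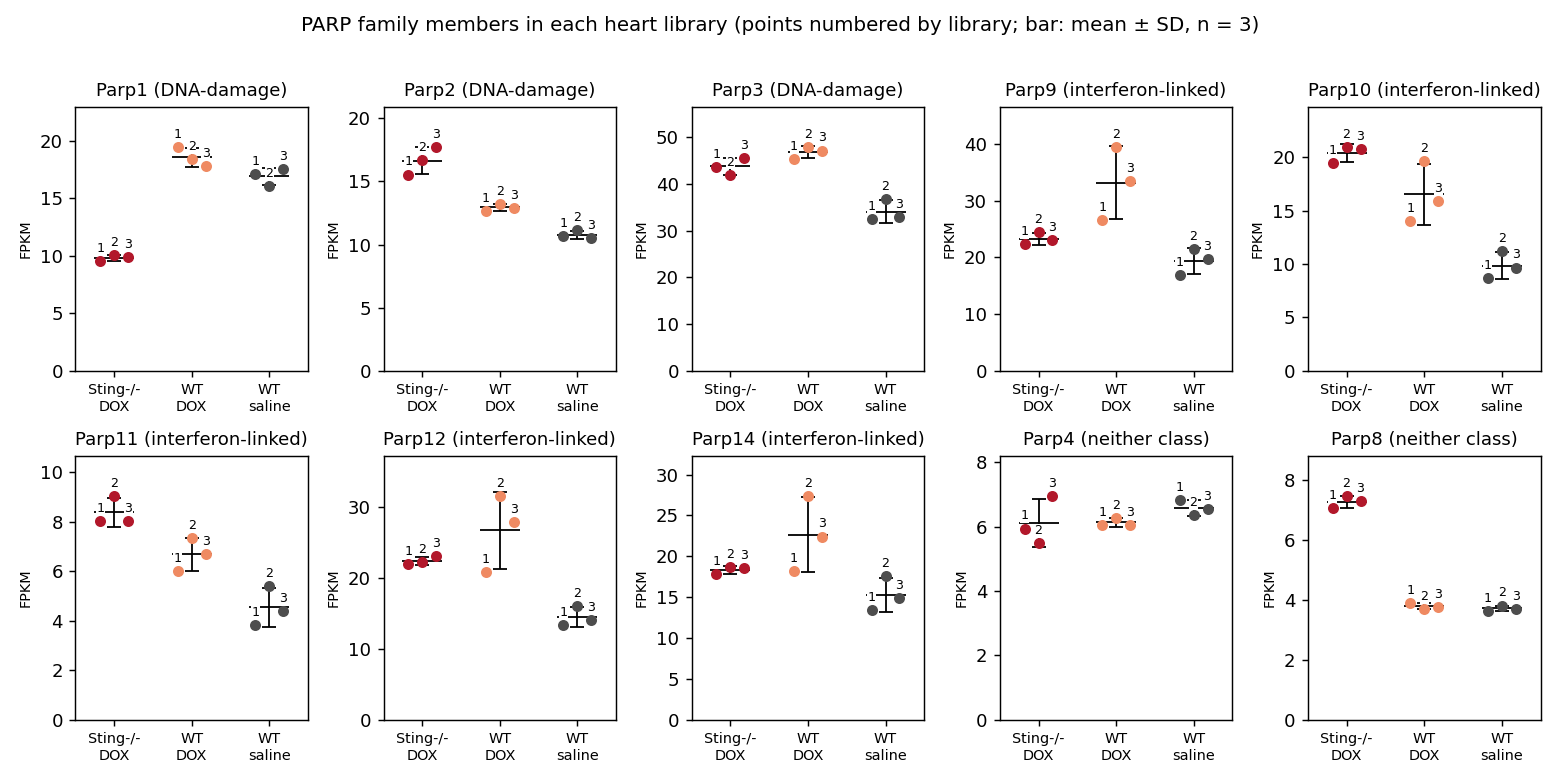
FPKM of each of the 10 members in every library, with points numbered by library and the mean ± SD (n = 3) of Sting-/- DOX, WT DOX and WT saline, each panel on its own axis from 0. Parp1 lay at 9.53 to 10.03 FPKM in Sting-/- DOX, below every wild-type library, while in Parp9, Parp12 and Parp14 library 2 of WT DOX was the highest point.

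Among the DNA-damage members, Parp1 fell in Sting-/- DOX to 0.554 times its WT DOX level on the FPKM + 1 scale, while Parp2 was called higher and Parp3 was not called. Parp1, which senses strand breaks and makes most of the cell's poly-ADP-ribose, had 9.53, 10.03 and 9.91 FPKM in Sting-/- DOX, 19.4, 18.4 and 17.8 FPKM in WT DOX and 17.1, 16.1 and 17.5 FPKM in WT saline. All Sting-/- DOX libraries lay below all wild-type libraries. The log2 fold change of Sting-/- DOX against WT DOX was -0.85 (SE 0.05, limma adjusted p = 1.36e-08), and against WT saline -0.72 (adjusted p = 4.44e-08). Both stayed called lower under all 19 settings tried, the main one included, at -1.16 to -0.82 and at -1.27 to -0.70. In WT DOX against WT saline, Parp1 was called higher by 0.13 (adjusted p = 0.048), no more than the median gene, and this call was made under 6 of 19 settings and turned to -0.11 under median-ratio scaling and -0.07 under quantile normalization. Leaving out library 1 or 2 of WT saline, library 1 or 2 of WT DOX, or library 2 or 3 of Sting-/- DOX each ended it, with values of 0.09 to 0.14.

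Parp2, the other break-activated enzyme that builds chains, had 15.6, 16.7 and 17.7 FPKM in Sting-/- DOX, 12.7, 13.2 and 12.9 FPKM in WT DOX and 10.7, 11.1 and 10.5 FPKM in WT saline. The 3 groups did not overlap. Its log2 fold change was 0.34 in Sting-/- DOX against WT DOX (limma adjusted p = 0.000102), 0.58 in Sting-/- DOX against WT saline (adjusted p = 5.93e-07) and 0.24 in WT DOX against WT saline (adjusted p = 0.00202). These values exceeded the median gene by 0.09, 0.09 and 0.11, and under median-ratio scaling they were 0.02, 0.03 and 0.01 and no longer called. Parp3, which takes part in the repair of double-strand breaks, had 43.7, 42.0 and 45.7 FPKM in Sting-/- DOX, 45.4, 47.9 and 47.2 FPKM in WT DOX and 32.5, 36.8 and 32.9 FPKM in WT saline. Both DOX groups lay above WT saline, and they overlapped each other. Parp3 rose in WT DOX against WT saline by 0.45 (SE 0.05, limma adjusted p = 1.4e-05), and this call held under all 19 settings at 0.20 to 0.51. Against WT saline Sting-/- DOX was higher by 0.35 (adjusted p = 4.82e-05), which reversed to -0.23 under median-ratio scaling. For Sting-/- DOX against WT DOX the difference was -0.10, with a 95% interval of -0.21 to 0.02 (adjusted p = 0.119), which median-ratio scaling moved to -0.43 and quantile normalization to -0.16, both called lower.

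The balance of the break-activated enzymes differed between the groups, with Parp1 lower in Sting-/- DOX. Parp2 was called higher there against WT DOX in the main fit but under neither rescaling, and came to 0.02 under median-ratio scaling. FPKM is per transcript length, so the levels of members can be set against each other, although libraries can differ in how evenly transcripts are covered. Parp2 over Parp1 was 1.69 ± 0.09 in Sting-/- DOX, 0.70 ± 0.04 in WT DOX and 0.64 ± 0.05 in WT saline (SD, n = 3 each). Parp1 held 14% ± 0.56 of the summed FPKM of Parp1 to Parp3 in Sting-/- DOX, 23.7% ± 1.22 in WT DOX and 27.4% ± 2 in WT saline. A ratio within a library does not depend on a scaling factor per library.

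The genes whose profiles over the 9 libraries were most like that of Parp1, by the mean absolute difference of log2(FPKM + 1) from the WT saline mean, were Pafah1b1 (0.04), Arhgef10l (0.04), Rabggtb (0.04), Stoml2 (0.05) and Micall1 (0.05). Pafah1b1, for example, averaged 22.8 FPKM in Sting-/- DOX, 38.9 FPKM in WT DOX and 37.2 FPKM in WT saline.

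All 5 interferon-linked members rose in WT DOX against WT saline. In Sting-/- DOX they divided in the main fit: Parp9 fell relative to WT DOX, and Parp10 and Parp11 were called higher. Parp12 and Parp14 lay between the wild-type groups without passing the test against WT DOX. This split depended on the scaling. Under both rescalings Parp9, Parp12 and Parp14 were called lower against WT DOX and none of the 5 higher. Of all genes, 43.1% and 39.7% were called lower under median-ratio scaling and quantile normalization. The log2 fold changes of the 5 members in WT DOX against WT saline were 0.48 to 0.82 with a median of 0.69, against 0.24 for the DNA-damage members and 0.13 for all genes. Under median-ratio scaling all 5 were still called higher, with a median of 0.46, and under quantile normalization 4 of 5 were. Parp14 passed only narrowly under median-ratio scaling, at 0.29 with a limma adjusted p that rounds to 0.05.

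Parp9, which lacks much catalytic activity of its own and works in a complex with the ubiquitin ligase Dtx3l, had 22.3, 24.4 and 23.0 FPKM in Sting-/- DOX, 26.7, 39.5 and 33.6 FPKM in WT DOX and 16.9, 21.6 and 19.7 FPKM in WT saline. Each Sting-/- DOX library lay below each WT DOX library and above each WT saline library. It rose in WT DOX against WT saline by 0.74 (SE 0.12, limma adjusted p = 0.000164) and fell in Sting-/- DOX against WT DOX, with a log2 fold change of -0.48 (SE 0.12, adjusted p = 0.00249). Both calls held under all 19 settings, at 0.50 to 0.88 and at -0.81 to -0.35. Sting-/- DOX against WT saline gave 0.26 with an adjusted p of 0.0584, and the sign turned to -0.31 under median-ratio scaling and -0.11 under quantile normalization. The call was not stable. Parp9 was called lower under median-ratio scaling and higher under 7 of the 19 settings, which were TPM scaling, a fit of only these groups, the replicate block, sample weights, and the fits without library 2 of WT saline, at 0.33, or library 1 or 2 of WT DOX, at 0.26.

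Parp12, a zinc-finger protein with antiviral activity, had 21.9, 22.3 and 23.1 FPKM in Sting-/- DOX, 20.8, 31.5 and 27.9 FPKM in WT DOX and 13.4, 16.06 and 14.04 FPKM in WT saline. Both DOX groups lay above WT saline, and library 1 of WT DOX fell below all Sting-/- DOX libraries. Parp12 had the highest of the 10 members' fold changes in WT DOX against WT saline, 0.82 (SE 0.12, limma adjusted p = 6.3e-05), called under all 19 settings at 0.59 to 0.99. The difference of Sting-/- DOX against WT DOX was -0.22, with a 95% interval of -0.48 to 0.03 (adjusted p = 0.0954); without library 1 of WT DOX it was -0.39 and called lower, as it was under both rescalings. Against WT saline Sting-/- DOX was higher by 0.60 (adjusted p = 0.000417), which came to 0.03 under median-ratio scaling and 0.20 under quantile normalization, neither called.

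Parp14, a large protein with macrodomains that bind ADP-ribose, had 17.8, 18.7 and 18.6 FPKM in Sting-/- DOX, 18.2, 27.3 and 22.4 FPKM in WT DOX and 13.4, 17.6 and 14.9 FPKM in WT saline. WT DOX and WT saline did not overlap, and Sting-/- DOX overlapped the lowest WT DOX library. Its rise in WT DOX against WT saline was 0.53 (SE 0.12, limma adjusted p = 0.00245). The difference of Sting-/- DOX against WT DOX was -0.27 with a 95% interval of -0.54 to -0.002 (adjusted p = 0.0577). It was called lower in 6 of 19 settings, among them both rescalings, at -0.59 and -0.48, and the fits without library 1 of WT DOX, at -0.41, and without library 2 of WT saline, at -0.27. Sting-/- DOX against WT saline gave 0.26 (adjusted p = 0.0673), with the sign turning to -0.31 under median-ratio scaling and -0.16 under quantile normalization. As with Parp9, it was called lower under median-ratio scaling and higher under the same 7 settings, at 0.35 without library 2 of WT saline and at 0.26 without library 1 or 2 of WT DOX. By the same measure of likeness as for Parp1, the genes nearest to Parp14 were Lgals3bp (0.06), Ifih1 (0.07), Nmi (0.08), Ogfr (0.09) and Hsp90aa1 (0.10).

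Parp10, a mono-ADP-ribosyltransferase, showed a different order of groups. It had 19.5, 21.0 and 20.8 FPKM in Sting-/- DOX, 14.1, 19.7 and 15.9 FPKM in WT DOX and 8.66, 11.3 and 9.68 FPKM in WT saline. Both DOX groups lay above WT saline, and the highest WT DOX library lay just above the lowest Sting-/- DOX library. The rise in WT DOX against WT saline was 0.69 (SE 0.11, limma adjusted p = 0.00014) and that in Sting-/- DOX against WT saline 0.99 (adjusted p = 2.54e-06), both called under all 19 settings. Against WT DOX, Sting-/- DOX was called higher by 0.30 (adjusted p = 0.023), which exceeded the median gene by 0.05 and came to -0.03 under median-ratio scaling. That call was also lost without library 1 of WT DOX (0.19), library 3 of WT DOX (0.28), library 2 of Sting-/- DOX (0.28) or library 3 of Sting-/- DOX (0.28). Parp11, another mono-ADP-ribosyltransferase, had 8.04, 9.02 and 8.04 FPKM in Sting-/- DOX, 6.02, 7.34 and 6.69 FPKM in WT DOX and 3.84, 5.39 and 4.39 FPKM in WT saline. The 3 groups did not overlap. Parp11 rose in WT DOX against WT saline by 0.48 (SE 0.10, limma adjusted p = 0.00118), which fell to 0.21 and was not called under quantile normalization. Sting-/- DOX against WT saline gave 0.77 (adjusted p = 1.27e-05), called under all 19 settings. Sting-/- DOX against WT DOX gave 0.29 (adjusted p = 0.0184), which came to -0.02 under median-ratio scaling and was lost without library 1 of WT DOX (0.22) or library 2 of Sting-/- DOX (0.24).

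Parp12 and Parp11 rose together in WT DOX, so the bases ahead of their start sites are shown, with those of Parp4, a member that was not called in that comparison. These calls are of the main fit. Under quantile normalization the rise of Parp11 was 0.21 and not called, and under both rescalings Parp4 was called lower. RefSeq windows (GRCm38.p6, while the deposited files name GRCm39) were at hand for 7 of the 10 members, in 8 windows, and Parp9, Parp10 and Parp14 had none. Each run is 250 bases, 5′ to 3′ on the gene's strand and ending at the base before the start site. Capitals mark matches to the core of the interferon-stimulated response element, GAAANNGAAA on either strand, or of the gamma-activated site, TTCNNNGAA, which reads the same on both strands. Parp11 at chr6:127446590-127446839, plus strand, Parp4 at chr14:56575369-56575618, plus strand, and Parp12 at chr6:39118350-39118599, minus strand, read:
Parp11: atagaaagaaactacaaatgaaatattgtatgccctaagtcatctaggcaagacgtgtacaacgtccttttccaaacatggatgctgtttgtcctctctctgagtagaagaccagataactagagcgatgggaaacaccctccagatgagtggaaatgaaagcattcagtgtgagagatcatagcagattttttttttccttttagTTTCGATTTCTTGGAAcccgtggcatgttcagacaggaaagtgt
Parp4: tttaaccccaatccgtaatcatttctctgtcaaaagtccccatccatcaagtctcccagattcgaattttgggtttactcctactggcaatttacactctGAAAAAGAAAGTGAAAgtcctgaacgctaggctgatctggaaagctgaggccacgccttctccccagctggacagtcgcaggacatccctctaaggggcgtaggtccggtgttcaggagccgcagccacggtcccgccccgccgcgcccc
Parp12: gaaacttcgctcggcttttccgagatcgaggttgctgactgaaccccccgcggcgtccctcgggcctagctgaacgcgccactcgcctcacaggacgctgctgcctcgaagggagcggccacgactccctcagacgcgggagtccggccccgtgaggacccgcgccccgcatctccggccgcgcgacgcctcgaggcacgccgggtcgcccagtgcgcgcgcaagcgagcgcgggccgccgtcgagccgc
The Parp11 window held TTTCGATTTC, a reverse-strand match to the first core, beginning 44 bases before the start site, and the overlapping TTCTTGGAA, a match to the second, beginning 37 bases before it. A second Parp11 start, and the windows of Parp1, Parp2, Parp3, Parp8 and Parp12, held neither. The Parp1 window was the only one whose start was not matched to the beginning of an annotated transcript. The Parp4 window held 2 overlapping matches to the first core, GAAAAAGAAA and GAAAGTGAAA. Of all 32851 windows of this length, 2.98% held the first core and 7.02% the second. A match is a run of letters and not a site shown to be bound, and its lack says only that these letters are not in this window.

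The interferon-linked members shared an order of libraries. In WT DOX, all 5 were highest in library 2, then library 3, then library 1, an order held by 23.6% of all genes tested. In WT saline, all 5 again had library 2 highest, then 3, then 1, against 19.5% of all genes. This order was held by 3 of 5 in Sting-/- DOX, against 17.3% of all genes. The library numbers come from the sample titles, and whether they pair libraries across groups is not known. Of the 27 interferon-stimulated genes tested, 25 had this order in WT DOX, 25 in WT saline and 8 in Sting-/- DOX, and of the 3 DNA-damage members 2 had it in WT DOX, 1 in WT saline and 1 in Sting-/- DOX. T and natural killer cell markers also varied within WT DOX, from 11.3 FPKM in library 2 to 20.7 FPKM in library 1, the reverse of this order. Neutrophil markers, at 209 to 277 FPKM, were highest in library 2 and lowest in library 1 of WT DOX. Macrophage and monocyte markers, at 340 to 380 FPKM, were so too, but without Ly6c2 they spanned only 229 to 230 FPKM. In WT saline the sums spanned 3.33 to 4.31 FPKM for T and natural killer cell markers and 6.03 to 6.23 FPKM for neutrophil markers. For macrophage and monocyte markers they spanned 49.0 to 52.6 FPKM. The part of these cell types in the spread of the members was not tested.

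**Figure D2:**
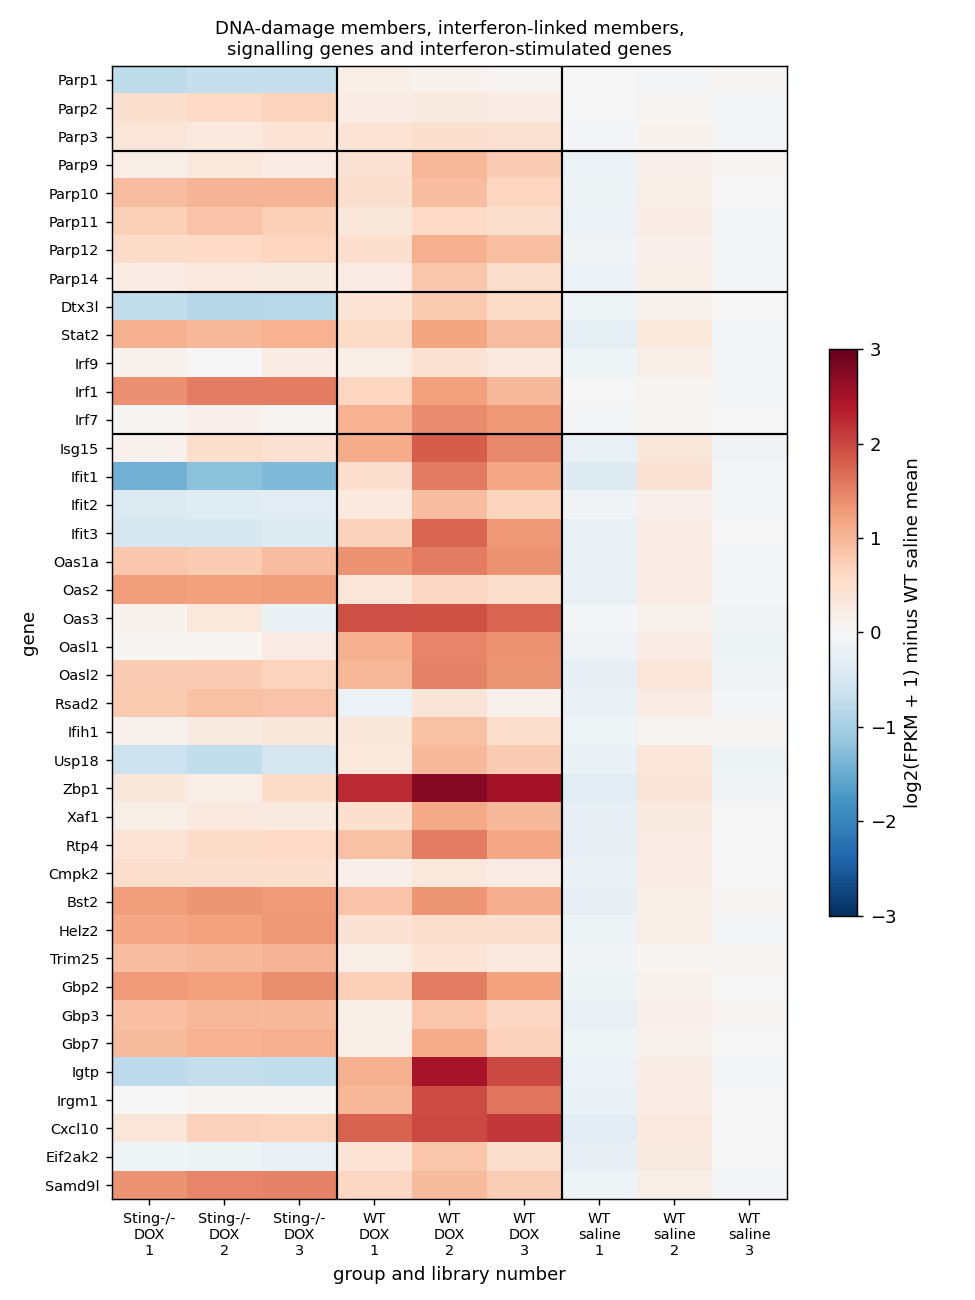
Colour shows log2(FPKM + 1) of each gene minus its WT saline mean, by library in Sting-/- DOX, WT DOX and WT saline, with lines between the DNA-damage members, the interferon-linked members, 5 signalling genes and the 27 interferon-stimulated genes tested. The interferon-linked members and 25 of the 27 interferon-stimulated genes were highest in library 2 and lowest in library 1 of WT DOX, while Parp1, Dtx3l and Ifit1 were below the WT saline mean in Sting-/- DOX.

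As a class, the interferon-linked members summed to 92.8 ± 3.0 FPKM in Sting-/- DOX, 106 ± 19.8 FPKM in WT DOX and 63.6 ± 7.85 FPKM in WT saline (SD, n = 3 each). The DNA-damage members summed to 70.3 ± 2.61 FPKM in Sting-/- DOX, 78.3 ± 1.06 FPKM in WT DOX and 61.7 ± 2.01 FPKM in WT saline. The ratio of the interferon-linked to the DNA-damage sum was 1.32 ± 0.06 in Sting-/- DOX, 1.35 ± 0.24 in WT DOX and 1.03 ± 0.09 in WT saline. Both DOX groups thus had a higher mean ratio than WT saline, and the means of the DOX groups differed by less than the SD of WT DOX. The wild-type groups overlapped, with the ratio at 1.11 in library 1 of WT DOX and 1.12 in library 2 of WT saline. Within both classes members differed in direction in Sting-/- DOX against WT DOX, with Parp1 and Parp9 called lower and Parp2, Parp10 and Parp11 called higher, though Parp2, Parp10 and Parp11 were not called under either rescaling.

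**Figure D3:**
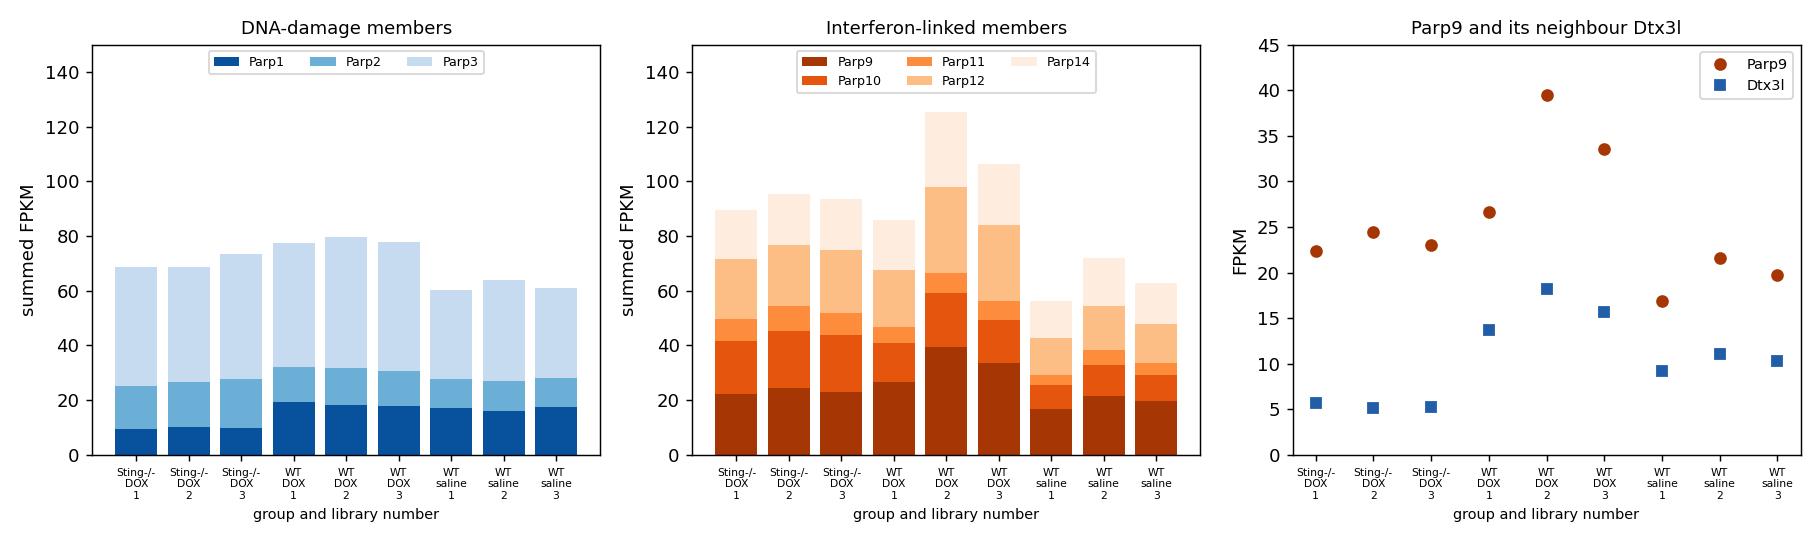
Stacked FPKM of the DNA-damage members (left) and the interferon-linked members (middle), and FPKM of Parp9 with its neighbour Dtx3l (right), in each library of Sting-/- DOX, WT DOX and WT saline. Parp1 held 14% of the DNA-damage sum in Sting-/- DOX and 23.7% in WT DOX, and Dtx3l lay at 5.12 to 5.71 FPKM in Sting-/- DOX, below all wild-type libraries.

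Of the members in neither class, Parp8 rose in Sting-/- DOX and Parp4 was not called in any of the 3 comparisons, though it was called lower under the rescalings. Parp8, a mono-ADP-ribosyltransferase of which little is known, had 7.07, 7.47 and 7.30 FPKM in Sting-/- DOX, 3.91, 3.70 and 3.78 FPKM in WT DOX and 3.64, 3.82 and 3.70 FPKM in WT saline. The wild-type groups overlapped, and all Sting-/- DOX libraries lay above them. The log2 fold change of Sting-/- DOX against WT DOX was 0.79 (SE 0.06, limma adjusted p = 7.59e-08), and against WT saline 0.81 (adjusted p = 3.97e-08), both called under all 18 settings in which Parp8 passed the filter, at 0.49 to 0.92 and 0.27 to 0.95. WT DOX against WT saline gave 0.02 with a 95% interval of -0.10 to 0.15 (adjusted p = 0.741), which turned to -0.18 under median-ratio scaling and -0.24 under quantile normalization, both called lower. Parp4, a component of vault particles, had 5.94, 5.48 and 6.94 FPKM in Sting-/- DOX, 6.04, 6.28 and 6.06 FPKM in WT DOX and 6.84, 6.35 and 6.55 FPKM in WT saline. The Sting-/- DOX libraries spread across both other groups. Its log2 fold changes were -0.01 in Sting-/- DOX against WT DOX (95% interval -0.17 to 0.16), -0.10 in Sting-/- DOX against WT saline and -0.09 in WT DOX against WT saline, with limma adjusted p-values of 0.939, 0.243 and 0.312. Under both median-ratio scaling and quantile normalization Parp4 was called lower in all 3 comparisons, and without library 3 of Sting-/- DOX it was called lower against WT saline, at -0.18.

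**Figure D4:**
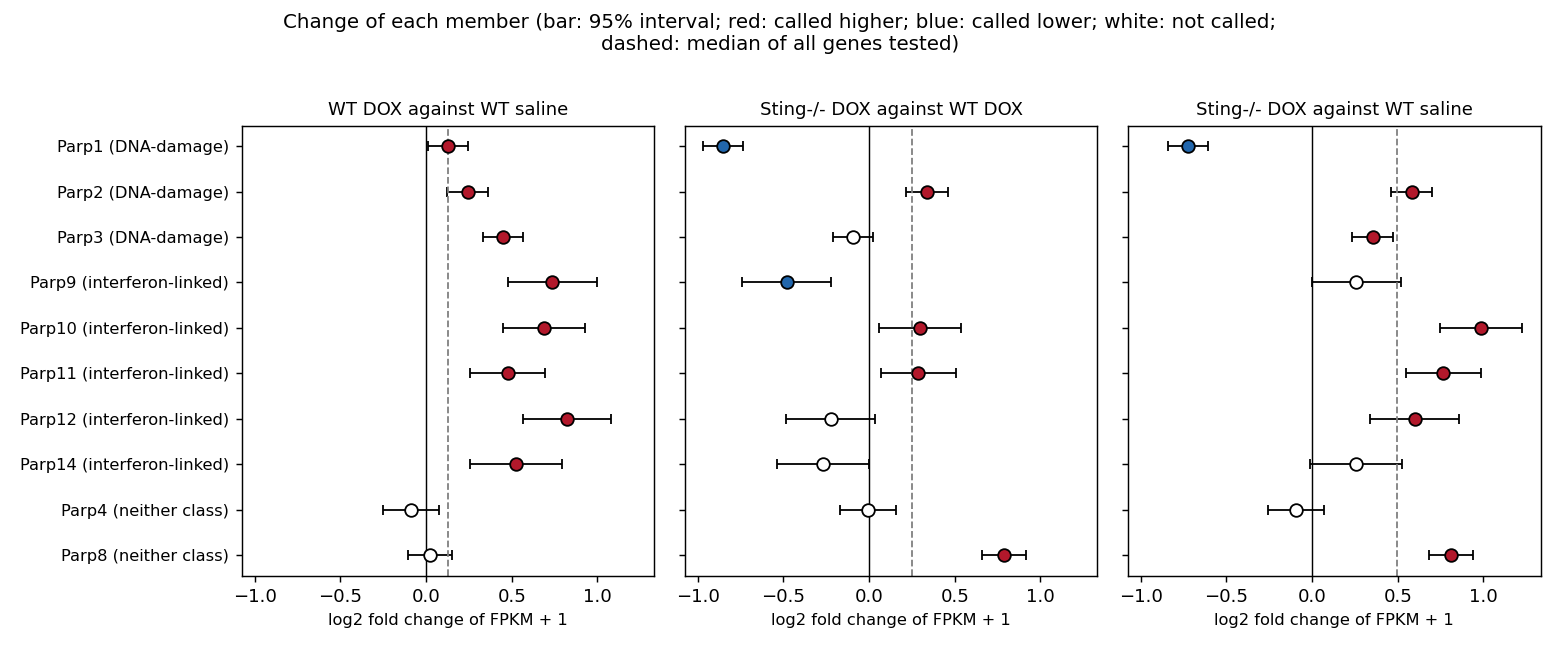
Log2 fold change of FPKM + 1 of each member with its 95% interval in the 3 comparisons, red where called higher, blue where called lower and white where not called, with the median of all genes tested as a dashed line. The interferon-linked members lay at 0.48 to 0.82 in WT DOX against WT saline, and Parp1 lay at -0.85 in Sting-/- DOX against WT DOX; the positions of Parp10 and Parp11 in that comparison, 0.30 and 0.29, turned to -0.03 and -0.02 under median-ratio scaling.

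Counted over the family, 8 of 10 members were called higher and 0 lower in WT DOX against WT saline, 4 higher and 2 lower in Sting-/- DOX against WT DOX, and 6 higher and 1 lower in Sting-/- DOX against WT saline. Set against all genes, the share of members called higher was above 45.3% in WT DOX against WT saline, and it was still above the 28.7% and 27.7% of all genes called higher under median-ratio scaling and quantile normalization, with 6 and 5 members higher and 2 lower under each. Of all genes, 40.9% and 43.0% were called lower under these rescalings. For Sting-/- DOX the counts depended on the scaling. Against WT DOX, the shares of members called higher and lower were both below those of all genes, 54.1% and 29.7%, but both rescalings gave 1 member higher and 6 lower, where 43.1% and 39.7% of all genes were called lower. The rescaled shares of all genes called higher were 37.7% and 41.9%. Against WT saline, both shares were again below those of all genes, 63.0% and 25.9%, while median-ratio scaling gave 3 members higher and 5 lower, with 44.0% of all genes called lower, and quantile normalization 4 higher and 2 lower, with 41.7%. Of all genes, 42.3% and 43.9% were called higher under these rescalings. The comparisons share groups and are not independent of each other.

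Dtx3l, the ubiquitin ligase that pairs with Parp9, lies next to it on chromosome 16, and the genes overlap on opposite strands by 458 exon bases of 4872 in Parp9. Strand handling in the counting was not given in the sources used here, so reads in that stretch cannot be told apart. Dtx3l had 5.71, 5.12 and 5.3 FPKM in Sting-/- DOX, 13.7, 18.2 and 15.6 FPKM in WT DOX and 9.23, 11.04 and 10.27 FPKM in WT saline. The Sting-/- DOX libraries lay below both wild-type groups, unlike those of Parp9. Dtx3l fell in Sting-/- DOX against WT DOX, with a log2 fold change of -1.40 (SE 0.09, limma adjusted p = 2.72e-08), and against WT saline with -0.81 (adjusted p = 3.62e-06), and it rose in WT DOX against WT saline by 0.59 (adjusted p = 0.000137), with the same signs and calls under both rescalings. Parp9 over Dtx3l was 3.91, 4.77 and 4.35 in Sting-/- DOX, 1.94, 2.17 and 2.15 in WT DOX and 1.83, 1.95 and 1.92 in WT saline. The log2 ratio in Sting-/- DOX exceeded that of WT DOX by 1.06 and that of WT saline by 1.19, each with a two-sided exact permutation p of 0.1, the smallest that 3 against 3 libraries allow, and the ratio does not depend on a scaling factor per library. Among other members, Parp10 shares 205 of 4275 exon bases with Plec on the same strand, and Parp4 335 bases with an antisense gene, while Parp2, Parp8, Parp11 and Parp12 overlap no other gene's exons in a GENCODE annotation of GRCm38.

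The interferon signalling genes listed with Parp9 and Parp14 rose in WT DOX against WT saline in 10 of 12 cases and fell in 1, with a median log2 fold change of 0.49 against 0.13 for all genes. Of all genes, 45.3% were called higher and 21.5% lower. Irf7, a transcription factor that amplifies the interferon response, rose by 1.26 (limma adjusted p = 4.4e-08), Irf1, another factor of that family, by 0.95 (adjusted p = 1.71e-05) and Stat2, part of the factor that binds the interferon-stimulated response element, by 0.89 (adjusted p = 0.000231). Under median-ratio scaling 6 of the 12 were higher and 2 lower, with these 3 among the higher, beside 28.7% and 40.9% of all genes. Of the 12, 6 were called higher and 5 lower in Sting-/- DOX against WT DOX, beside 54.1% and 29.7% of all genes. The median was 0.18, against 0.25 for all genes. Median-ratio scaling gave 3 higher and 6 lower, beside 37.7% and 43.1% of all genes. Ifngr2, a chain of the interferon-gamma receptor, had 50, 51.1 and 51 FPKM in Sting-/- DOX, against 151, 142 and 139 FPKM in WT DOX, with a log2 fold change of -1.49 (SE 0.04, limma adjusted p = 4.61e-12), also called lower under both rescalings.

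The interferon-stimulated genes, a wider list with 27 of 30 tested, are given here beside the interferon-linked members. In WT DOX against WT saline, 26 of 27 were called higher and 0 lower, with a median of 1.07, and 23 and 24 of 27 were higher under median-ratio scaling and quantile normalization. Of all genes, 45.3% were called higher, and 28.7% and 27.7% under these rescalings. Zbp1, a nucleic-acid sensor, rose by 2.49, the chemokine Cxcl10 by 1.96 and the antiviral synthetase Oas3 by 1.86. The count was 17 of 27 lower and 7 higher in Sting-/- DOX against WT DOX, with a median of -0.62, and 17 were lower under each rescaling. Of all genes, 29.7% were called lower and 54.1% higher, and 43.1% and 39.7% were lower under the rescalings. The guanosine triphosphatase Igtp had a log2 fold change of -2.59, the antiviral Ifit1 -2.40 and Zbp1 -2.13. Against WT saline, 14 were called higher and 5 lower in Sting-/- DOX, with a median of 0.51 against 0.49 for all genes, while median-ratio scaling gave 9 higher and 9 lower and quantile normalization 11 and 9. Of all genes, 63.0% were called higher and 25.9% lower. These shares were 42.3% and 44.0% under median-ratio scaling and 43.9% and 41.7% under quantile normalization. The median of the interferon-linked members was 0.69, -0.22 and 0.60 in the same order of comparisons, so they lay closer to 0 than the wider list in both of the first comparisons.

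In WT DOX against WT saline, 45.3% of all genes were called higher and 21.5% lower, with a median of 0.13. The repair factors that act with Parp1 and Parp2 were called higher in 8 of 16 cases, near that share, and lower in 0. Their median was 0.19. Those with the largest changes were Lig1, a DNA ligase, at 1.29, Fen1, a flap nuclease, at 0.93 and Pcna, the sliding clamp, at 0.91, all of which also act in DNA replication. Markers of dividing cells, among them Pcna, rose in the same comparison in 5 of 5 cases, and their part in the repair list was not tested. Median-ratio scaling gave 5 higher and 4 lower of the 16, with these 3 genes still higher. It called 28.7% of all genes higher and 40.9% lower. Among the 16, 7 were called higher and 2 lower in Sting-/- DOX against WT DOX, but 3 higher and 9 lower under median-ratio scaling, so the balance of the list depends on the scaling. The shares of all genes were 54.1% higher and 29.7% lower, and 37.7% and 43.1% under median-ratio scaling. Timeless, which binds PARP1, had 20.2, 21.8 and 22.8 FPKM in Sting-/- DOX, against 6.55, 6.61 and 5.86 FPKM in WT DOX, a log2 fold change of 1.62 (SE 0.08, limma adjusted p = 1.55e-09). The repair scaffold Xrcc1 rose by 0.78 (adjusted p = 2.04e-06), and both were called higher under both rescalings as well. Macroh2a1, a histone variant with a macrodomain, was called higher by 0.49, which came to 0.15 and was not called under median-ratio scaling. Against WT saline, 11 were called higher and 1 lower in Sting-/- DOX, with a median of 0.51 against 0.49 for all genes, but 6 higher and 6 lower under median-ratio scaling and 7 higher and 5 lower under quantile normalization. The shares of all genes were 63.0% higher and 25.9% lower. They were 42.3% and 44.0% under median-ratio scaling and 43.9% and 41.7% under quantile normalization.

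Genes listed for the removal of ADP-ribose, enzymes and relatives of them, moved both ways, as did all genes tested. In WT DOX against WT saline, 4 of 10 were called higher and 3 lower, beside 45.3% and 21.5% of all genes. The median was 0.10, against 0.13 for all genes. Nudt5, which hydrolyses free ADP-ribose, rose by 0.90 and Adprs, which takes ADP-ribose off serines, by 0.52. Adprhl1, a heart-enriched relative of Adprs, had 52.8, 55.9 and 57.8 FPKM in Sting-/- DOX, 200, 186 and 197 FPKM in WT DOX and 438, 462 and 466 FPKM in WT saline. The 3 groups were far apart, and cardiomyocyte markers moved in the same order. It fell with -1.22 in WT DOX against WT saline (SE 0.05, limma adjusted p = 3.97e-10) and with -1.79 in Sting-/- DOX against WT DOX (adjusted p = 3.83e-12). Macrod1, a mitochondrial macrodomain hydrolase, averaged 25.2 FPKM in Sting-/- DOX, 138 FPKM in WT DOX and 171 FPKM in WT saline, with -2.40 in Sting-/- DOX against WT DOX (adjusted p = 1.51e-11). In that comparison 3 of the 10 were called higher, Adprs among them at 0.85, and 4 lower, with a median of 0.03 against 0.25 for all genes. Of all genes, 54.1% were called higher and 29.7% lower. Under median-ratio scaling 2 of the 10 were higher and 7 lower, beside 37.7% and 43.1% of all genes. Under quantile normalization 2 of the 10 were higher and 6 lower, beside 41.9% and 39.7% of all genes. Against WT saline 5 of the 10 were higher and 4 lower in Sting-/- DOX, beside 63.0% and 25.9% of all genes. The median was 0.11, against 0.49 for all genes. Median-ratio scaling gave 3 higher and 6 lower, beside 42.3% and 44.0% of all genes. Quantile normalization gave 4 higher and 6 lower, beside 43.9% and 41.7% of all genes. Adprhl1, Macrod1 and Adprs kept sign and call under both rescalings in all 3 comparisons.

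The other PARP family genes, 6 outside the 10 members, were called higher in 2 and lower in 2 cases in WT DOX against WT saline. Of all genes, 45.3% were called higher and 21.5% lower. The median of the 6 was 0.03, against 0.13 for all genes. Zc3hav1, an antiviral zinc-finger protein without catalytic activity, rose by 0.74 and Tiparp, a mono-ADP-ribosyltransferase, by 0.46, while Parp6 was called lower at -0.16. Of the 6, 4 were higher and 2 lower in Sting-/- DOX against WT DOX, beside 54.1% and 29.7% of all genes. The median was 0.41, against 0.25 for all genes. Median-ratio scaling gave 3 higher and 3 lower, beside 37.7% and 43.1% of all genes. Quantile normalization gave 3 higher and 2 lower, beside 41.9% and 39.7% of all genes. Tnks, a tankyrase that builds chains on telomere and Wnt pathway proteins, had 2.05, 2.08 and 2.2 FPKM in Sting-/- DOX, against 7.34, 7.17 and 6.96 FPKM in WT DOX, a log2 fold change of -1.39 (SE 0.06, limma adjusted p = 4.84e-10). Parp6 had 25.0, 26.4 and 26.6 FPKM in Sting-/- DOX, against 9.90, 10.5 and 9.41 FPKM in WT DOX, a log2 fold change of 1.31 (SE 0.06, adjusted p = 1.08e-09), and Parp16, of the endoplasmic reticulum membrane, rose by 0.70 (adjusted p = 7.15e-06). Tnks and Parp6 differed by more than any of the 10 members did, and all 3 genes kept sign and call under both rescalings. Against WT saline, 3 of the 6 were higher and 2 lower in Sting-/- DOX, with a median of 0.43 against 0.49 for all genes. Of all genes, 63.0% were called higher and 25.9% lower.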

How the data were processed

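RNA-seq of mouse heart covered 3 libraries each of Sting-/- DOX, WT DOX and WT saline, grouped by their titles. The labels' protocols name a QIAGEN kit for RNA and an MGI kit for the libraries. FPKM per gene was deposited by the authors for each library. Per the submitters' processing notes, HISAT2 2.0.4, Bowtie2 2.2.5, RSEM 1.2.12 and GRCm39 were named, with no role or order. FPKM is relative to each library's total, so abundant genes shift all others, and counts were not recovered: 57.4% to 66.9% of low values lay within 0.1 reads of a whole number. From these steps 1 FPKM was worth about 8.2 to 8.3 fragments per kilobase of transcript in Sting-/- DOX, 12.9 to 13.4 in WT DOX and 11.1 to 11.4 in WT saline, and total depth is approximate.

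Symbols came from a RefSeq table of GRCm38.p6 (16825 IDs matched, 48 not), and promoter windows came from RefSeq on the same build. Mx1, Mx2 and Rigi were not analysed here. limma 3.58.1 in R 4.3.3 (trended prior, 9 libraries in 1 fit, 6 residual degrees of freedom, two-sided) was run on log2(FPKM + 1) of the 12485 genes averaging 1 FPKM or more, with Benjamini-Hochberg adjustment over them all and a threshold of 0.05; this step was tested on simulated data. The rest used Python 3.11.15 (scipy 1.17.1, pandas 2.3.3, numpy 2.4.6 and, for figures, matplotlib 3.10.9). Alternatives were a pseudocount of 0.1, no filter and a mean of 5 FPKM, median-ratio, quantile and TPM scaling, only the groups compared, a replicate block, sample weights and leaving out each library.

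The members and lists were chosen with earlier results of these data known. All members are named, with up to 3 genes of the largest absolute change per list and comparison, the 5 genes most like Parp1 and Parp14 (predicted genes left out), Sting1 and Dtx3l. A result of the interferon signalling list is not reported here.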

Additional observations from a re-analysis of the deposited data

How the results depend on the processing

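Each member was refitted in 3 comparisons under the alternatives. Of 537 such values, 459 kept direction and side of the threshold, 28 lost a call, 34 gained one and 16 changed sign; the cause was not tested. Scaling mattered most. In WT DOX against WT saline, median-ratio scaling and quantile normalization called 3582 and 3461 of all genes higher and 5109 and 5363 lower, so that 41.2% and 39.2% of calls were higher instead of 67.8%; members lower were 2 under each, and members higher 5 under quantile normalization. In Sting-/- DOX against WT DOX each called 1 member higher and 6 lower, with 46.7% and 51.4% of all calls higher instead of 64.6%. In Sting-/- DOX against WT saline they called 5493 and 5205 of all genes lower (49.0% and 51.3% of calls higher instead of 70.9%) and 5 and 2 members lower, and median-ratio scaling 3 members higher.

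Signs changed under median-ratio scaling for Parp1 (-0.11) and Parp8 (-0.18) in WT DOX against WT saline, Parp10 (-0.028) and Parp11 (-0.015) in Sting-/- DOX against WT DOX, and Parp3 (-0.23), Parp9 (-0.31) and Parp14 (-0.31) in Sting-/- DOX against WT saline. Quantile normalization did so for Parp1 (-0.065) and Parp8 (-0.24) in WT DOX against WT saline and Parp9 (-0.11) and Parp14 (-0.16) in Sting-/- DOX against WT saline, and TPM scaling for Parp8 (-0.002) in WT DOX against WT saline and Parp4 (0.053) in Sting-/- DOX against WT DOX. The log2 difference in class ratio, Sting-/- DOX against WT DOX, was -0.016, and 0.023 from class medians.

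Leaving out 1 library gave 2 to 4 members higher and 2 to 4 lower in Sting-/- DOX against WT DOX (2 higher and 4 lower without library 1 of WT DOX, 2 higher without library 2 of Sting-/- DOX), and 1 to 2 lower in Sting-/- DOX against WT saline (2 without library 3 of Sting-/- DOX, Parp4 being the second). Parp4 in Sting-/- DOX against WT DOX ran from -0.088 to 0.059, above 0 without library 2 of WT DOX or library 1 or 2 of Sting-/- DOX.

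Same-numbered libraries correlated at -0.03 to 0.10 in their deviations, and libraries with unlike numbers at -0.07 to 0.04. For WT DOX with WT saline the same-numbered values were 0.04, 0.10 and 0.02 in libraries 1, 2 and 3. Such correlations over all genes cannot decide whether libraries were paired, which the labels do not state. A fit with a replicate block called 4 members lower in Sting-/- DOX against WT DOX, adding Parp12 and Parp14, as did sample weights. Allowing 1 mismatch put the first promoter core in 31.4% of windows.

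Read totals were not given, so the depth behind each member is known only approximately.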
